A study of Homo sapiens with 26 samples.

Results

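STK32B, EVC2, EVC and CRMP1 lie next to each other on chromosome 4p16. They are 4 of the 41078 genes in the deposited table, which holds 1 mRNA library for each of 26 single cell-derived cell lines (SCDCLs). The 4 genes were selected on measured values of these libraries. The libraries were split by SMAD4 into 12 with SMAD4 under 1 TPM and 14 others, and STK32B, EVC and CRMP1 were chosen by their difference between these sets, with EVC2 as the gene between them. Levels in the 12 and in the 14 are therefore given as descriptions, without a test. TPM is the share of a gene among all transcripts of a library, corrected for transcript length and scaled to the same total in each library, so that levels of different genes can be set side by side.

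Both parental lines, BxPC3 and Panc-1, come from pancreatic ductal adenocarcinoma, and the labels describe BxPC3 as classical-like and Panc-1 as basal-like. Each SCDCL grew from 1 cell of one of these lines, and no SCDCL has a replicate library. The spread given is therefore between SCDCLs, and variation of culture and library preparation cannot be separated from it. Of the 26 libraries, 12 are labelled BxPC3 (numbers 15 to 26) and 14 are labelled Panc1 (numbers 1 to 14, here written Panc-1). Gemcitabine is named as the treatment in the labels of all libraries, but the methods describe it for separate viability assays, and the response of each SCDCL was not analysed here. Totals were 27144920 to 34945608 estimated counts in the 12 libraries and 27035724 to 32601392 in the 14. SMAD4, a signal transducer of the TGF-beta pathway that BxPC3 is known to have lost, reached at most 0.044 TPM in the 12 and was at 28.1 to 52.2 TPM in the 14, so that no library lay near the threshold. Of the 12 libraries, 5 carry the BxPC3 label and 7 the Panc-1 label, and the 14 hold 7 of each. SMAD4 thus contradicts 7 of the BxPC3 labels and 7 of the Panc-1 labels. The wording "labelled" is kept for both lines, and no library was moved. Other genes differ with SMAD4 in these sets. The mesenchymal filament gene VIM was at 1.42 to 73.2 TPM in the 12 and at 3046.7 to 4526.5 TPM in the 14, and the epithelial cadherin gene CDH1 was at 90.8 to 197.7 and 0.338 to 7.74 TPM. Other markers went the other way. The mesenchymal gene FN1 was at 8.39 to 66.2 TPM in the 12 and at 0.787 to 3.2 TPM in the 14. The epithelial keratin genes KRT8 (median 461.2 and 2053.3 TPM) and KRT18 (520.6 and 1598.4 TPM) had higher medians in the 14, with overlapping ranges.

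The 4 genes have unlike roles. EVC and EVC2 encode transmembrane proteins that form a complex near the base of the primary cilium, in a region called the EvC zone, where the complex binds Smoothened and promotes Hedgehog signalling. Loss of either gene causes Ellis-van Creveld syndrome, a disorder of skeletal growth. CRMP1 encodes a cytosolic phosphoprotein of the collapsin response mediator family, which relays semaphorin signals to the cytoskeleton and is best known from growing axons. STK32B encodes a serine/threonine protein kinase.

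The stretch spans 841.6 kb of GRCh38, at chr4:5051480-5893086. STK32B (ENSG00000152953, plus strand, chr4:5051480-5500994) is the longest of the genes at 449.5 kb. Its end lies 41.8 kb from the end of EVC2 (ENSG00000173040, minus strand, chr4:5542772-5709548). EVC2 and EVC (ENSG00000072840, plus strand, chr4:5711201-5814305) are arranged head to head, with 1653 bases between their annotated starts. CRMP1 (ENSG00000072832, minus strand, chr4:5748084-5893086) runs towards EVC on the other strand, and the gene models share 66.2 kb. Most of that overlap is intron. In exons they share 159 bases, against 7144 exonic bases of EVC and 5869 of CRMP1, and the protein-coding CRMP1 transcripts end 6.46 kb beyond the end of EVC. The libraries were prepared with the strand kept, but whether the strand was used when reads were assigned is not given in the sources used here, so reads from the shared exonic bases are uncertain between EVC and CRMP1.

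The promoters of the 4 genes are shown because the genes share a stretch of chromosome but not a level of expression. Each sequence is the RefSeq promoter of the gene in GRCh38.p14, from 250 bases before to 50 bases after the start, written 5′ to 3′ on the strand of the gene. Capitals mark GC boxes, the letters GGGCGG or their reverse complement CCGCCC. The windows are chr4:5051230-5051529 on the plus strand for STK32B, chr4:5708510-5708809 on the minus strand for EVC2, chr4:5710951-5711250 on the plus strand for EVC and chr4:5893037-5893336 on the minus strand for CRMP1. RefSeq lists 4 starts for CRMP1, and the outermost is shown. The EVC2 window surrounds the start of a shorter EVC2 transcript, at position 5708559 in GENCODE 44.
STK32B: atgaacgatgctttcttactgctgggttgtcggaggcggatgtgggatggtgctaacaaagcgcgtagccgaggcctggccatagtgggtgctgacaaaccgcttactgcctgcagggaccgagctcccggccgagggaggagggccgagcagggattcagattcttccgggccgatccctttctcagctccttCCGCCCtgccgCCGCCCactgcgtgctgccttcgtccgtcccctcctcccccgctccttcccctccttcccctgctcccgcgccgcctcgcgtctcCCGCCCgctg
EVC2: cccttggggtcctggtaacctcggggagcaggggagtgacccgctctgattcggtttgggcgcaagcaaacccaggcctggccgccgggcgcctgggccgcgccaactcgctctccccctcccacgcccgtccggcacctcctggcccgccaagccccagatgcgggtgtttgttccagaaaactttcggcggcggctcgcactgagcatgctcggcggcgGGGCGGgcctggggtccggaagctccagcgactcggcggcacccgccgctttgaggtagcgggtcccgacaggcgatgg
EVC: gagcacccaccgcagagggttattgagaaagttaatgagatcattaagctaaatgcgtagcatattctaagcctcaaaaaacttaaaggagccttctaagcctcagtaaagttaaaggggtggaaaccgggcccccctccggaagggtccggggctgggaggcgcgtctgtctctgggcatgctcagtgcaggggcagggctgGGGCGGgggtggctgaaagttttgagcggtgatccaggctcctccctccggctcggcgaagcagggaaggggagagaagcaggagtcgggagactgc
CRMP1: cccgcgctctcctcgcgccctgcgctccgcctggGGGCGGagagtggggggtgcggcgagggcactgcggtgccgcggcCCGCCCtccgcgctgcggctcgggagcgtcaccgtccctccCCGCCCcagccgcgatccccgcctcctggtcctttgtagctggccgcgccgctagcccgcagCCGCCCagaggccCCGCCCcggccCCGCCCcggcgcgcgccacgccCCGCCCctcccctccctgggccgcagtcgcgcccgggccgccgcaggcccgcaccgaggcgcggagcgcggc
The CRMP1 promoter shown holds 49 CpG dinucleotides and 7 GC boxes, and 1.6% of the 35116 RefSeq promoters of this length hold as many CpG. The other listed CRMP1 starts hold fewer, with 21, 32 and 22 CpG (39.5%, 18.9% and 37.7% of promoters hold as many). Which start these cells use was not tested. EVC2, the gene with no counts, has 32 CpG and 1 GC box in its promoter (18.9% of promoters hold as many CpG). The STK32B promoter has 27 CpG and 3 GC boxes (28.2%), and the EVC promoter has 13 CpG and 1 GC box (51.7%). The median promoter holds 14 CpG. On either strand, a GC box occurs in 45% of all promoters, the TATA box TATAAA in 11.5%, the CCAAT box CCAAT in 34.6% and the GLI motif GACCACCCA in 0.236%. None of the last 3 motifs is found in the 4 windows. The order of CpG content does not follow the order of expression described next.

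STK32B, EVC and CRMP1 were expressed in each of the 14 libraries and were at or close to 0 in each of the 12, whichever label a library carried, while EVC2 was listed at 0 in all 26 libraries. In bulk RNA, fewer cells expressing a gene and less RNA per cell cannot be told apart. STK32B was the highest of the genes. In the 14 libraries its lowest level was 17.3 TPM (library 11), its median 20 TPM and its highest 27.6 TPM (library 23), with a mean of 21.1 ± 2.75 TPM (SD, n = 14). Behind these levels stand 1100.8 to 1917.8 estimated counts per library. In the 12 libraries STK32B was at 0 in 8. It reached at most 0.031 TPM (library 4) and at most 2.13 estimated counts (library 6). The ranges of both sets are far apart. As a ratio of summed counts, scaled to the library totals, the 14 stood 2581.5 times above the 12. This ratio is imprecise, because it rests on 6.78 estimated counts summed over the 12.

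EVC was lower than STK32B. Its lowest level in the 14 libraries was 4.42 TPM (library 12), its median 6 TPM and its highest 10.3 TPM (library 23), with a mean of 6.37 ± 1.55 TPM (SD, n = 14) and 477.2 to 1219.7 estimated counts. In the 12 libraries EVC was above 0 in 3 and reached at most 0.0124 TPM, or 1.54 estimated counts. The ratio of summed counts was 2868.2, also imprecise, with 3.15 estimated counts summed over the 12. CRMP1 was the lowest of the 3 expressed genes. In the 14 libraries it was at 0.79 TPM at the lowest (library 12), 1.16 TPM at the median and 1.74 TPM at the highest (library 11), with a mean of 1.21 ± 0.294 TPM (SD, n = 14). It was under 1 TPM in 3 of the 14, all labelled Panc-1, and its 44.8 to 104.4 estimated counts make it the least precisely measured member. CRMP1 had 0 counts in each of the 12 libraries. Against a floor of 3 counts over these libraries it was at least 298.6-fold higher in the 14.

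**Figure D1:**
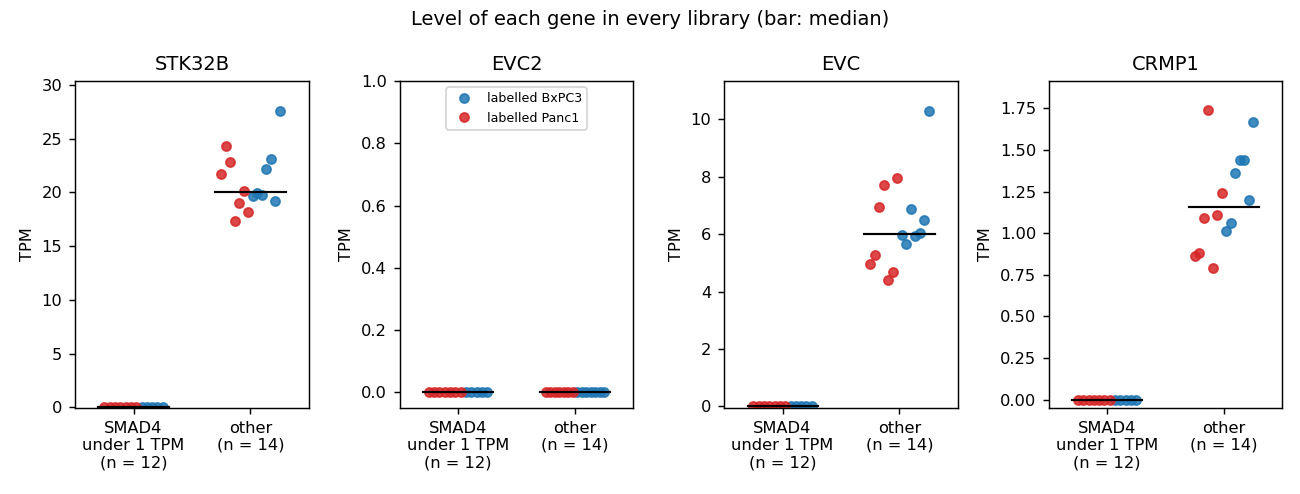
TPM (vertical axis, linear, a separate scale for each gene) of STK32B, EVC2, EVC and CRMP1 in each library, for the 12 libraries with SMAD4 under 1 TPM and the 14 others. Points are libraries, coloured by label, and bars are medians. STK32B (17.3 to 27.6 TPM), EVC (4.42 to 10.3 TPM) and CRMP1 (0.79 to 1.74 TPM) are apart from 0 only in the 14, where both labels mix, and EVC2 is at 0 throughout.

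The order STK32B, EVC, CRMP1, EVC2 held in each of the 14 libraries, and the ranges of the neighbours in this order did not overlap. EVC2 had no estimated count in any library, nor in any of the resamples of reads described below for the other members, although its start lies beside that of EVC. A count of 0 allows up to 3 counts in a library. Such a listing is not rare, since 11554 of the 41078 genes were at 0 in all 26 libraries, 1148 of them among the 19903 protein-coding genes. The partner of EVC in the ciliary complex was thus not detectable at this depth, in the libraries with EVC as in those without it.

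Over all genes that reached 10 estimated counts in 1 library or more, 2538 of 19292 (13.2%) had a TPM range in the 14 libraries that lay wholly above the range in the 12, and 2545 (13.2%) lay wholly below. The rule used this contrast for the members, and nothing is read from their count of 3. A stricter pattern, at least 10 estimated counts in each of the 14 and at most 3 in each of the 12, was met by 121 of the 14921 genes with at least 10 counts in every library of a set (0.811%), STK32B, EVC and CRMP1 among them. The opposite pattern was met by 116 genes.

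The position of these genes relative to each other was not part of that contrast. Protein-coding genes with at least 10 estimated counts in a library were put in genomic order, and neighbours that were on in each of the 14 and off in each of the 12 were joined into runs. Of 16235 such genes, 75 were on only in the 14 and 84 only in the 12. STK32B, EVC and CRMP1 formed the only run of 3, with EVC2 left out of the order for lack of counts. Runs of exactly 2 genes numbered 7 for each direction, and no run was longer than 3. The adjacency is a description, because the stretch was picked with this pattern known.

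The only groups that the labels give are the lines, and the next comparison asks whether the members differ between them. With edgeR's quasi-likelihood test over all 26 libraries, 0 of 16008 genes (0%) passed an adjusted p of 0.05, 367 had an unadjusted p under 0.05, and the smallest adjusted p was 0.677. DESeq2 called 1 gene, the pseudogene MYH16, which is named here after its values were seen and is the gene with that smallest edgeR value. STK32B had a log2 fold change of -0.29 ± 1.30 (SE) between the libraries labelled Panc-1 and those labelled BxPC3 (edgeR adjusted p = 1). For EVC the log2 fold change was -0.39 ± 1.28 and for CRMP1 -0.46 ± 1.09, both with an edgeR adjusted p of 1. EVC2 was removed by the filter on low counts, and the other members passed it only through the 14 libraries. Each label holds libraries with and without expression of these genes, and the standard errors are wide. The libraries with expression are 7 of the 12 labelled BxPC3 and 7 of the 14 labelled Panc-1, and the fold changes reflect these shares as well. Because the members were chosen by their difference between the SMAD4 sets, a covariate for these sets was bound to shrink the standard errors. With it, the differences stayed small. The log2 fold change was then -0.07 ± 0.18 for STK32B (edgeR adjusted p = 0.958), -0.13 ± 0.21 for EVC (edgeR adjusted p = 0.915) and -0.23 ± 0.21 for CRMP1 (edgeR adjusted p = 0.838). None of the 3 passed the threshold in either fit.

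Within the 14 libraries the labels gave overlapping levels. STK32B was at 19.2 to 27.6 TPM (median 19.9) in the 7 libraries labelled BxPC3 and at 17.3 to 24.3 TPM (median 20.1) in the 7 labelled Panc-1. EVC was at 5.67 to 10.3 TPM (median 6.03) and 4.42 to 7.96 TPM (median 5.26). CRMP1 was at 1.01 to 1.67 TPM (median 1.36) and 0.79 to 1.74 TPM (median 1.09). The medians of EVC and CRMP1 were somewhat higher in the libraries labelled BxPC3, within the spread between libraries.

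The spread of the members among the 14 libraries depended on the scale. In TPM the coefficient of variation was 13% for STK32B, 24.3% for EVC and 24.4% for CRMP1, beside a median of 21.2% over the 13305 genes with at least 10 estimated counts in each of the 14. In counts that are not rescaled by transcript length it was 12.5% for STK32B, 12% for EVC and 21.5% for CRMP1, so that EVC differed from STK32B in spread in TPM only. The error of read assignment and counting within a library, measured from the 30 resamples of reads that kallisto made, was 2.6% for STK32B, 3.79% for EVC and 11.4% for CRMP1. This error, which is of counts not rescaled by length, holds no variation between cultures or library preparations.

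EVC and CRMP1 varied together within the 14 libraries, while no relation of STK32B with either passed the threshold. On log2(TPM + 1), EVC and CRMP1 had a Pearson r of 0.764 (permutation p = 0.00146, adjusted p = 0.00438 over the 3 pairs of members) and a Spearman rho of 0.719 (permutation p = 0.00523, adjusted p = 0.0157). Library 12 was lowest for both genes, with 4.42 TPM of EVC and 0.79 TPM of CRMP1. Library 23 was the highest for EVC and library 11 for CRMP1, at 7.7 TPM of EVC and 1.74 TPM of CRMP1. Without libraries 23 and 12, the 2 farthest from the median of EVC, r was 0.616 (permutation p = 0.0322, adjusted p = 0.0967), so the relation past the threshold rests on those libraries. Leaving out any single library kept r between 0.701 and 0.804, but rho no longer passed the threshold without library 12 alone (rho = 0.648, permutation adjusted p = 0.0557) or library 23 alone (rho = 0.659, permutation adjusted p = 0.0516). Within each label the direction was the same, with r = 0.69 in the 7 libraries labelled BxPC3 (exact permutation p = 0.0581, adjusted p = 0.116 over 6 relations) and r = 0.775 in the 7 labelled Panc-1 (exact permutation p = 0.0319, adjusted p = 0.0958). Neither passed the threshold after adjustment. Reads from the 159 shared exonic bases could be assigned to either gene, and their part in this relation was not tested.

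STK32B and EVC had r = 0.218 (permutation p = 0.451, adjusted p = 0.676) and rho = -0.0549 (permutation p = 0.854, adjusted p = 0.913). For STK32B and CRMP1, r was 0.095 (permutation p = 0.749) and rho 0.033 (permutation p = 0.913). Without libraries 23 and 9, the 2 farthest from the median of STK32B, r was -0.274 with EVC and -0.125 with CRMP1. Leaving out library 23 alone turned the sign of both, to -0.338 and -0.27, whereas leaving out library 9 alone gave 0.315 and 0.233. The value with CRMP1 also turned, to -0.00399, without library 12 and, to -0.0795, on log2(CPM + 1) with TMM factors. The labels pointed in opposite directions. STK32B and CRMP1 had r = 0.836 in the 7 libraries labelled BxPC3 (exact permutation p = 0.0139, adjusted p = 0.0833) and r = -0.614 in the 7 labelled Panc-1 (exact permutation p = 0.136, adjusted p = 0.163). For STK32B and EVC the values were 0.754 (exact permutation p = 0.102, adjusted p = 0.153) and -0.365 (exact permutation p = 0.399, adjusted p = 0.399). None of these passed the threshold after adjustment, and the difference between the labels was not tested.

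The level of EVC depends on which of its transcripts the reads were assigned to. GENCODE 44 lists protein-coding EVC transcripts of 6427 bases (EVC-201, 21 exons) and 1960 bases (EVC-203, 12 exons, ending at position 5758311). The annotation that the authors used is another release, and its transcripts may differ. The deposited mean effective length of EVC, which weights transcripts by their abundance, ranged from 3790.0 bases in library 23 to 6330.1 bases in library 8 over the 14 libraries, with a median of 5103.7. The lengths of the other expressed members were steadier, at 3223.4 to 3373.7 bases for STK32B and 2619.3 to 3193.5 bases for CRMP1. Library 23, which had the highest EVC level by TPM, was the library with the shortest mean length. Library 14, second in TPM at 7.96, had the next shortest, 4068.2 bases. Over the 14 libraries EVC TPM and length had r = -0.851 and rho = -0.824, given as a description because TPM is itself divided by length.

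Reads without the length correction gave a flatter picture of EVC. The mean counts of the kallisto resamples are not rescaled by length. Scaled to the library total (CPM), they ranged from 17.8 (library 12) to 27.2 (library 11), with a median of 21.9. Library 23 was at 25.9 CPM, next to 25.2 CPM in library 19. STK32B ranged from 39.9 to 61.7 CPM. The CPM of EVC and its length had r = -0.316 and rho = -0.231. CRMP1 ranged from 1.61 to 3.47 CPM. On log2(CPM + 1) EVC and CRMP1 still varied together, with r = 0.787 (permutation p = 0.00078, adjusted p = 0.00234 over the 3 pairs) and rho = 0.754 (permutation p = 0.00287, adjusted p = 0.00861). In CPM library 12 was lowest and library 11 highest for both genes, and the relation without the farthest libraries was not computed on this scale.

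**Figure D2:**
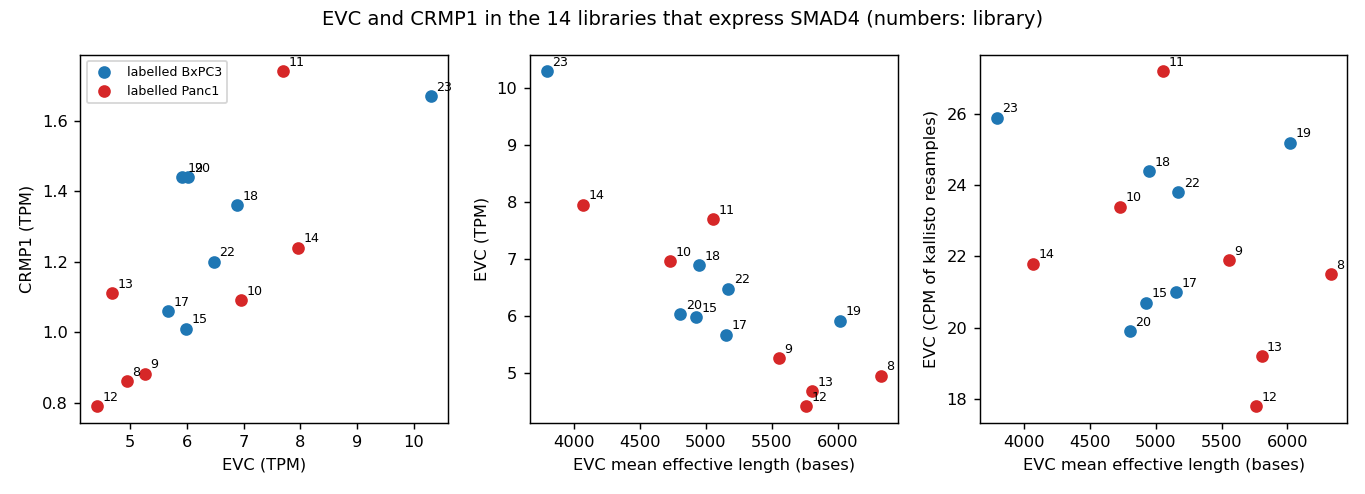
Left, CRMP1 against EVC in TPM in the 14 libraries. Middle and right, EVC in TPM and in CPM of the kallisto resamples against its mean effective length in bases. Points are libraries, numbered and coloured by label. EVC in TPM falls with length (r = -0.851) from 10.3 TPM in library 23, and the CPM, 17.8 to 27.2, follow length less closely (r = -0.316).

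The genes flanking the stretch were examined to see how far its pattern extends. Within 2 Mb of the span lie 62 genes of the table, of which 34 reached 10 estimated counts in 1 library or more. Of these, 9 had ranges wholly higher in the 14 libraries, 2 wholly lower, and 23 overlapped. Leaving out the members, 6 were higher, beside a background of 13.2% in each direction over all genes. No other gene of the window had at least 10 counts in each of the 14 and at most 3 in each of the 12.

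On the STK32B side, the nearest expressed gene moved the other way. MSX1, a homeobox transcription factor whose start lies 0.192 Mb before that of STK32B, was at 8.15 to 16 TPM in the 12 libraries and at 0.926 to 3.04 TPM in the 14. CYTL1, between MSX1 and STK32B, was at most 0.212 TPM in any library. Farther out, STX18, a syntaxin of the endoplasmic reticulum, overlapped between the sets (10.3 to 15.1 and 12.3 to 25.6 TPM). LYAR, a nucleolar protein, was higher in the 14, at 39.6 to 63.8 TPM against 20 to 34.9 TPM. ADRA2C, which encodes an alpha-2 adrenergic receptor, was at 0 to 0.166 TPM in the 12 and at 2.41 to 24.5 TPM in the 14. DOK7, an adaptor of the muscle receptor kinase MuSK, ran in the direction of MSX1, with 5.35 to 12.6 TPM in the 12 and 0.0334 to 0.369 TPM in the 14. Both directions thus occur on this side.

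On the CRMP1 side, C4orf50 and JAKMIP1 were at most 0.0209 and 0.06 TPM in any library. Beyond them 2 adjacent genes were higher in the 14 libraries. WFS1, which encodes the endoplasmic reticulum membrane protein wolframin, was at 42.9 to 118.1 TPM against 11.6 to 28.8 TPM in the 12. PPP2R2C, a regulatory subunit of protein phosphatase 2A, was at 8.31 to 24.9 TPM against 0 to 1.02 TPM. The next genes, from MAN2B2 to SORCS2, overlapped between the sets, among them S100P, a calcium-binding protein, at 5.52 to 192.9 TPM in the 12 and 0.655 to 5.62 TPM in the 14. At the far edge AFAP1, an actin-binding adaptor, was higher in the 14, at 51.6 to 99 TPM against 29.3 to 43.3 TPM. The remaining higher gene of the window is FAM86EP, a long non-coding RNA, at 1.78 to 4.61 TPM against 0.442 to 1.65 TPM, which is named here after its values were seen. A second entry of FAM86EP, a transcribed pseudogene, overlapped, at 0.0639 to 0.594 TPM against 0 to 0.0863 TPM. None of the window genes that were tested was called between the labels. By edgeR the same holds for all 16008 genes tested. Each label mixes both SMAD4 sets, so this does not show that the window genes are alike in the lines.

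**Figure D3:**
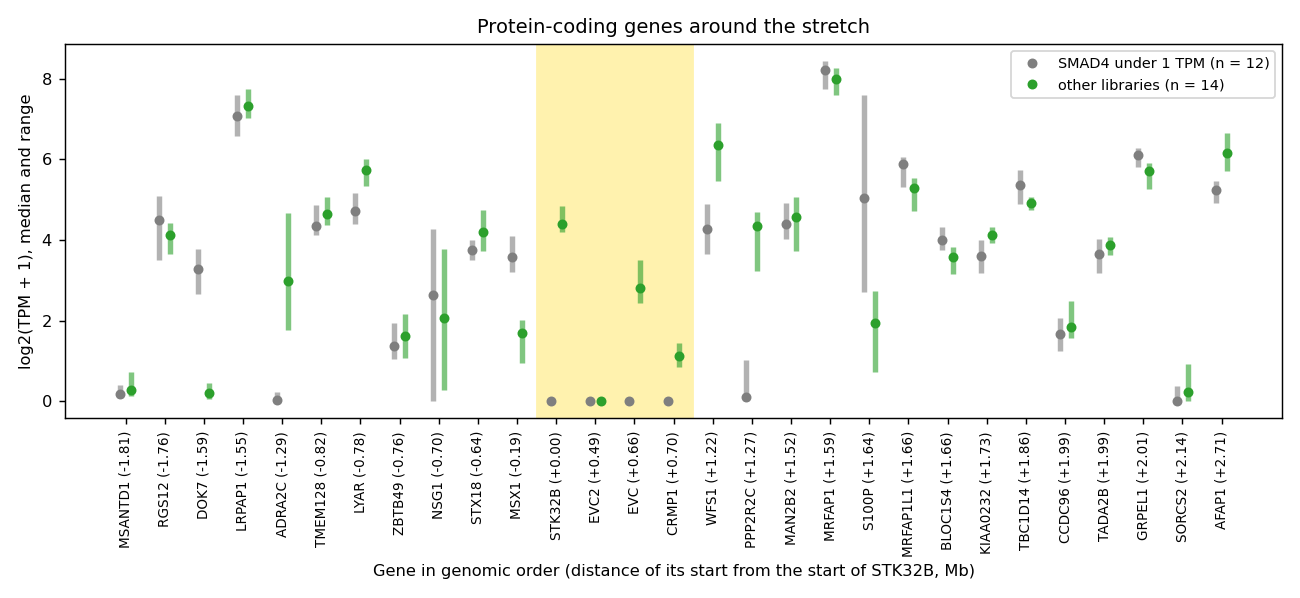
Median (points) and range (bars) of log2(TPM + 1) for named protein-coding genes with at least 10 estimated counts in a library (and EVC2), in genomic order, with the distance of each start from that of STK32B in Mb. Grey marks the 12 libraries with SMAD4 under 1 TPM and green the 14 others, and the shaded genes are STK32B, EVC2, EVC and CRMP1. MSX1 and DOK7 are lower in the 14 and LYAR, ADRA2C, WFS1, PPP2R2C and AFAP1 higher, whereas most other genes overlap.

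The pathways of the members were then described from lists of genes. EVC acts in Hedgehog signalling, for which 17 genes were listed. Of these, 2 were higher in the 14 libraries, 4 were lower and 11 overlapped, beside 13.2% of all genes in each direction, so the share that was higher is near the background. Of the list, 0 of the 15 that could be tested were called between the labels, as were 0 of all 16008 genes (edgeR, median log2 fold change 0.13 beside -0.01 over all genes, none of the 15 at an adjusted p under 0.05). The ligand SHH was at 13.9 to 163.0 TPM in the 14 and at 0.0964 to 2.81 TPM in the 12. GLI1, a transcription factor of the pathway, was at 1.54 to 11.5 TPM against 0.0103 to 0.981 TPM.

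Other parts of the pathway were lower in the same libraries or overlapped. BOC, a co-receptor of the ligand, was at 0 to 0.151 TPM in the 14 against 0.375 to 8.02 TPM in the 12. KIF7, a ciliary kinesin that regulates GLI proteins, was at 1.1 to 3.06 against 5.23 to 13.3 TPM. GPR161, a ciliary receptor that restrains the pathway, was at 0.209 to 1.94 against 7.33 to 13.2 TPM, and GLI3, which can act as a repressor, was at 0 to 0.291 against 0.475 to 5.65 TPM. The receptor PTCH1 (4.89 to 14.7 against 7.61 to 22.8 TPM), HHIP (0 to 0.191 against 0.145 to 4.69 TPM) and the inhibitor SUFU (4.99 to 8.7 against 5.57 to 7.77 TPM) overlapped. Their medians were lower in the 14, at 10.6, 0.031 and 6.25 TPM against 13.5, 0.606 and 7.02 TPM in the 12. SMO, the transducer to which the EVC complex binds, was at most 0.586 TPM in any library.

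IQCE and EFCAB7, which tether the EVC complex in the EvC zone, were expressed in all libraries. IQCE was at 15.7 to 25.1 TPM in the 14 and 9.17 to 21 TPM in the 12, and EFCAB7 at 8.05 to 13.1 and 5.46 to 12.6 TPM, so both overlapped. Of 10 listed genes of the primary cilium, 1 was higher in the 14, the intraflagellar transport gene IFT88 (11.3 to 18.4 against 5.17 to 11 TPM), and 8 others overlapped. That share is near the 13.2% of all genes that were higher. Genes for the cilium were thus measured in both sets. Within the 14 libraries EVC was compared with 4 partners. It had r = 0.165 with IQCE (permutation p = 0.571), 0.307 with EFCAB7 (p = 0.288), 0.349 with GLI1 (p = 0.223) and -0.515 with PTCH1 (p = 0.0584, adjusted p = 0.234 over the 4 relations). None passed the threshold. The Spearman rho was 0.0945, 0.301, 0.327 and -0.446 in the same order. EVC was taken in TPM here, and these relations were not repeated in CPM.

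Of the 4 other listed genes of the CRMP1 family, 2 were higher in the 14 libraries and 2 overlapped, beside 13.2% of all genes that were higher. DPYSL2, a widely expressed family member, was at 16.3 to 39.7 TPM in the 14 libraries and, unlike CRMP1, was also expressed in the 12, at 0.959 to 2.9 TPM. DPYSL4 was at 1.5 to 4 against 0 to 0.0306 TPM. DPYSL3 and DPYSL5 were low in all libraries and overlapped. By TPM, DPYSL2 therefore exceeded CRMP1, at 0.79 to 1.74 TPM, in each of the 14. Of 7 genes of semaphorin signalling, 0 were higher in the 14, 4 were lower and 3 overlapped, beside 13.2% of all genes in each direction. The lower genes were the plexin receptors PLXNA1 (13.8 to 44.3 against 118.0 to 290.9 TPM) and PLXNA2 (0 to 0.162 against 17.6 to 51.5 TPM) and the kinases FYN (0.809 to 8.93 against 19.4 to 44.3 TPM) and GSK3B (6.2 to 13.4 against 26.3 to 41.8 TPM), which act on collapsin response mediators. The ligand SEMA3A, the receptor NRP1 and the kinase CDK5 overlapped.

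STK32B has a pair of relatives. STK32C was at 20 to 44.9 TPM in the 14 and at 5.7 to 10.9 TPM in the 12, so that it was expressed in all libraries and higher in the 14, as were 13.2% of all genes. STK32A was at most 0.483 TPM and overlapped. None of the genes in the cilium, EvC zone, collapsin response mediator, semaphorin and STK32 lists that could be tested was called between the labels. The same holds for all 16008 genes tested by edgeR.

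**Figure D4:**
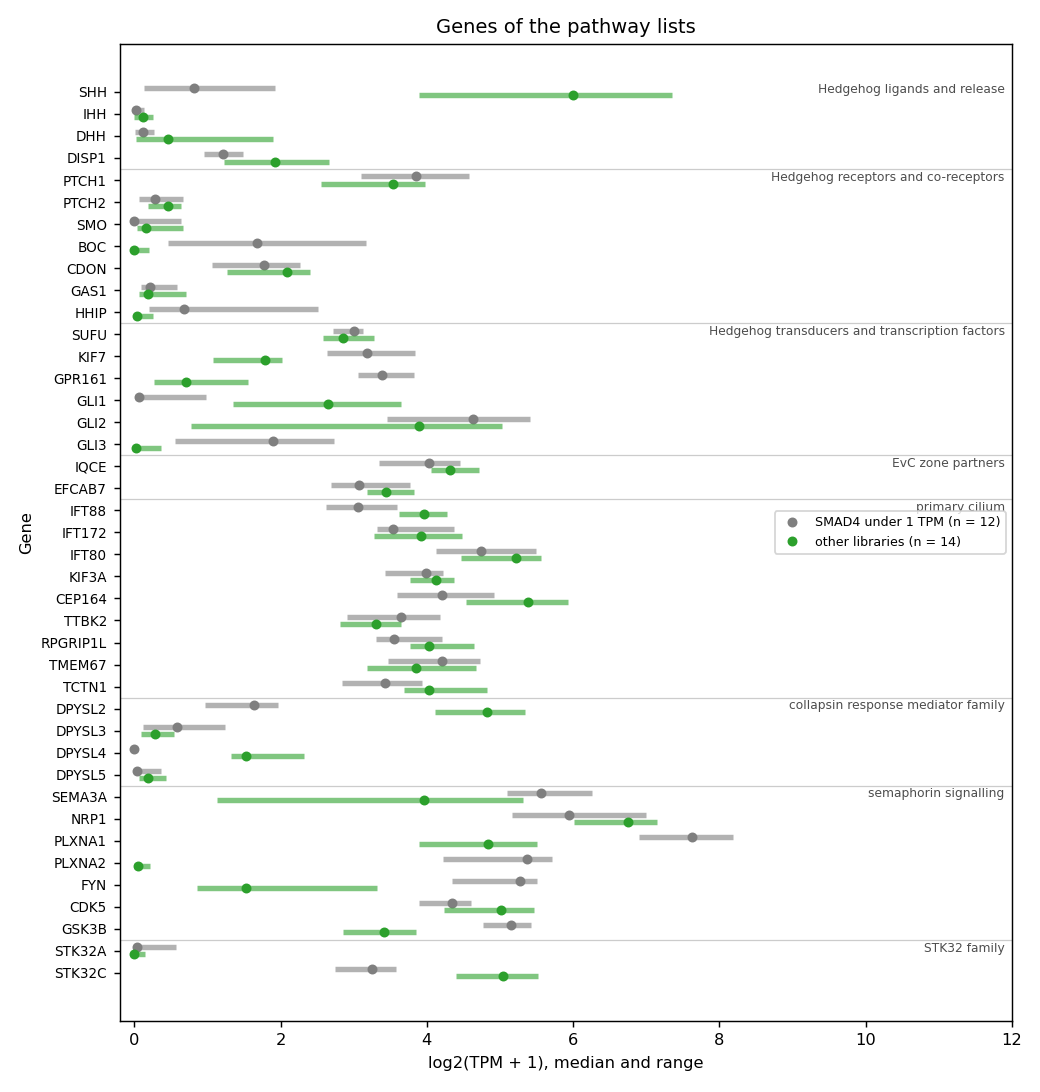
Median (points) and range (bars) of log2(TPM + 1) for genes of the Hedgehog, EvC zone, primary cilium, collapsin response mediator, semaphorin and STK32 lists, in the 12 libraries with SMAD4 under 1 TPM (grey) and the 14 others (green). SHH, GLI1, IFT88, DPYSL2, DPYSL4 and STK32C lie wholly higher in the 14, and BOC, KIF7, GPR161, GLI3, PLXNA1, PLXNA2, FYN and GSK3B wholly lower.

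Some marker genes of cell types differed between the SMAD4 sets and others overlapped, beside 13.2% of all genes that were higher in the 14 and 13.2% that were lower. Of 6 epithelial markers, 3 were lower in the 14 and 3 overlapped, with sums of 4025.9 to 8126.3 TPM in the 12 and 2067.1 to 8437.2 TPM in the 14. Of 4 mesenchymal markers, VIM and ZEB1 were higher in the 14, FN1 was lower and CDH2 overlapped, with sums of 12.4 to 128.6 and 3109.4 to 4565.0 TPM. Markers of cells foreign to a cell line were examined as well. Of 4 fibroblast markers, 3 overlapped and LUM was too low to count (at most 0.243 TPM), with sums of 9.65 to 28 TPM in the 12 and 2.66 to 39.4 TPM in the 14, mostly from COL1A1. All 3 leukocyte markers overlapped, with sums of 0.0923 to 29.8 and 0.0314 to 3.54 TPM, in which CD14 reached 29.1 TPM in the 12 and PTPRC at most 0.535 TPM. Of 3 endothelial markers, CDH5 (at most 0.0427 against 1.04 to 13.6 TPM) and VWF (at most 0.0144 against 0.0316 to 0.473 TPM) were lower in the 14 and PECAM1 overlapped, with sums of 3.16 to 17 TPM in the 12 and 0.321 to 5.39 TPM in the 14. The part of these genes in the pattern of the members was not tested.

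The genes whose levels followed each member most closely over the 14 libraries were not its neighbours. For STK32B these were GSTO2 on chromosome 10 (Spearman rho = 0.912), UBAP2 on chromosome 9 (0.908) and SPAG9 on chromosome 17 (0.895). For EVC they were APPL2 on chromosome 12 (0.868), PLPP7 on chromosome 9 (0.864) and PRRC2A on chromosome 6 (0.842). For CRMP1 they were CAMK2N2 on chromosome 3 (0.873), CADM4 on chromosome 19 (0.873) and CLASP2 on chromosome 3 (0.864). These are the 3 highest of 13305 genes in each case, computed on libraries that share their depth and normalization, and are given without a p. For EVC the ranking uses TPM, which followed its mean effective length (rho = -0.824), and it was not repeated in CPM. Likeness within the 12 could not be measured, since the members are at or close to 0 there, and the levels of these genes in the 12 went both ways. GSTO2 was at 21.1 to 39.7 TPM there and at 5.86 to 18.8 TPM in the 14. PRRC2A was at 34.1 to 53.5 and 1 to 3.5 TPM, and CADM4 at 11.1 to 19 and 2.38 to 7.52 TPM. UBAP2 (13.7 to 17.8 against 37.9 to 58.9 TPM), APPL2 (3.57 to 11 against 13.8 to 22.8 TPM) and PLPP7 (0 to 0.214 against 0.778 to 3.39 TPM) were lower in the 12. SPAG9, CAMK2N2 and CLASP2 overlapped between the sets.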

How the data were processed

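Polyadenylated RNA of 26 SCDCLs was sequenced from strand-specific libraries, 1 library each. The authors assigned reads to the human transcriptome of Ensembl GRCh38 with kallisto 0.46.1 and deposited, summed to genes with tximport, TPM values per gene and library, mean effective transcript lengths in bases, and estimated counts remade from TPM and average length. These expected counts are therefore tied to TPM and are not normalized between libraries. The deposited estimated counts of 30 kallisto resamples of each library, not remade from length, gave the error of read assignment and a mean count that was scaled to the library total (CPM). Floors cover counting error only.

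Of 41078 genes, 36315 were matched to GENCODE 44. The members, gene lists and named genes were chosen with earlier results of these data known. Named genes were the members, SMAD4, cell type markers, the protein-coding genes within 2 Mb, the listed genes, and the 3 genes of highest Spearman rho with each member. Not every one is printed, and 1 listed gene is not reported here. Groups came from the labels, and the sets by SMAD4 TPM under 1 came from the data, so no test between the sets was made. Estimated counts were rounded for edgeR 4.0.16 (TMM, filterByExpr, quasi-likelihood, Benjamini-Hochberg), and limma 3.58.1 and DESeq2 1.42.0 were alternatives in R 4.3.3. Correlations used log2(TPM + 1), a pseudocount of 1 and 100000 two-sided permutations, or all permutations for 7 libraries, in Python 3.11.15 with scipy 1.17.1. The edgeR test was checked on simulated counts, and the DESeq2 and limma alternatives were not. Because nothing says that SCDCLs were cultured more than once, p-values measure the spread between SCDCLs together with that of culture and library preparation.

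Ranges of TPM were compared for genes with at least 10 estimated counts in a library. Promoters came from RefSeq (GRCh38.p14). The alternatives are given in the closing section. Counts of the resamples and the omission of single libraries were added as alternatives after the data had been seen.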

Additional observations from a re-analysis of the deposited data

Results flagged for a closer look

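EVC in library 23 stood apart from the other libraries labelled BxPC3 that express it. It was at 10.3 TPM, and its gap to the next of the 7 libraries was 0.735 of their range, above the critical value of 0.568 for 7 samples. The highest and lowest libraries of STK32B, EVC and CRMP1 were examined in both labels, and chance alone marks about 1 in 20 groups. The same library had the shortest mean effective length of EVC, 3790.0 bases, and in CPM of the kallisto resamples, which are not rescaled by length, its gap was 0.116 of the range. For STK32B library 23 was also the highest of these 7, with a gap of 0.535 in TPM and 0.574 in CPM of the resamples. In CPM, STK32B of library 23 is thus above the critical value and EVC is not.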

How the results depend on the processing

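The median of log2(TPM + 1) in the 14 libraries exceeded that in the 12 by 4.39 for STK32B, 2.81 for EVC and 1.11 for CRMP1. In that order the differences were 7.65, 5.93 and 3.65 with a pseudocount of 0.1, 5.58, 4.59 and 1.73 on log2(CPM + 1) with TMM factors, 5.57, 4.59 and 1.72 with median-of-ratios factors, and 5.6, 4.51 and 1.8 from CPM of the kallisto resamples. The direction held in each, and the sizes follow the scale. DESeq2 called 1 gene between the labels where edgeR called 0, and no member was called by any test. The correlation of EVC and CRMP1 fell to 0.616 (permutation adjusted p = 0.0967) without libraries 23 and 12, and the omission of single libraries gave 0.701 to 0.804. For STK32B and EVC r turned to -0.274 without libraries 23 and 9, and the omission of single libraries gave -0.338 (without library 23) to 0.384 (without library 11). For STK32B and CRMP1 r was -0.0795 with TMM factors, -0.00951 from the resamples, -0.125 without libraries 23 and 9, and -0.27 (without library 23) to 0.391 (without library 11), with -0.00399 without library 12. No sign is given for these pairs, and the cause was not tested. Within 1 Mb, 1 neighbour was lower in the 14 in place of 2, since the window holds fewer genes. No paired analysis was possible because the labelled lines share no replicate number. CRMP1, at 44.8 to 104.4 counts, is limited most by depth. SMAD4 goes against many labels, so differences between the lines themselves were not tested.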
